A study of Mus musculus with 8 samples.

Results

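The genes described here are 10 members of the circadian clock, namely Per1, Per2, Per3, Cry1, Cry2, Arntl, Clock, Nr1d1, Nr1d2 and Dbp. They were chosen by symbol, through the RefSeq accession of each array probe. No rule on their response was used, but earlier results of these data were known. All 10 had a probe among the 19751 genes named on the array, and all 10 were among the 15320 genes tested. Dbp was measured by 2 probes and each of the other members by 1, which gave 11 probes. Expression was measured in AtT20, a mouse line of pituitary corticotroph tumor cells that secrete ACTH. In 4 control samples the cells were incubated without agonist, and in 4 samples with 10 μM HX630, a synthetic agonist of the retinoid X receptors (RXRs). Both groups spent the 48 hr of treatment in DMEM with 1% stripped serum, so the controls shared the change of medium. A tumor line kept in culture limits both groups as a model of corticotrophs.

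The clock is a loop of transcription that repeats about once a day in most cells. BMAL1 (the product of Arntl) and CLOCK bind as a pair to E-boxes and switch on the Per, Cry, Nr1d and Dbp genes. PER and CRY proteins return to the nucleus and hold BMAL1 and CLOCK in check. In a further arm, the nuclear receptors REV-ERBα (Nr1d1) and REV-ERBβ (Nr1d2) repress Arntl through RORE elements, which ROR receptors activate. DBP drives genes with D-boxes, the element that NFIL3 represses. In the pituitary, clock genes cycle along with the daily rhythm of hormone secretion. Arntl and its target Nr1d1 peak at nearly opposite times of the cycle where the clock runs in step.

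Promoter sequences from RefSeq (assembly GRCm38.p6) are shown for the gene pairs whose responses are compared further on, Per1 with Per3 and Nr1d1 with Nr1d2, and for Arntl, whose window holds a RORE core. Each runs from 250 bases before to 50 bases from an annotated start, 5′ to 3′ on the strand of the gene. Capitals mark the E-box CACGTG, the E′-box CACGTT, the D-box TTANGTAA and the RORE cores TAGGTCA and TGGGTCA, searched on both strands. The sequences lie at chr11:69098699-69098998 (plus strand, Per1), chr4:151044616-151044915 (minus strand, Per3), chr7:113207261-113207560 (plus strand, Arntl), chr11:98775328-98775627 (minus strand, Nr1d1) and chr14:18239057-18239356 (minus strand, Nr1d2).
Per1: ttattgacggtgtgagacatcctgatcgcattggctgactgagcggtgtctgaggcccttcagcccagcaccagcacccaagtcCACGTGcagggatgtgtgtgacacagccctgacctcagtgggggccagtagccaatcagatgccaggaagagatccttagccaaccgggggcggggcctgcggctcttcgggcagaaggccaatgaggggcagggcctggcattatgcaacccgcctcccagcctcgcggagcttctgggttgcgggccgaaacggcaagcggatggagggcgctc
Per3: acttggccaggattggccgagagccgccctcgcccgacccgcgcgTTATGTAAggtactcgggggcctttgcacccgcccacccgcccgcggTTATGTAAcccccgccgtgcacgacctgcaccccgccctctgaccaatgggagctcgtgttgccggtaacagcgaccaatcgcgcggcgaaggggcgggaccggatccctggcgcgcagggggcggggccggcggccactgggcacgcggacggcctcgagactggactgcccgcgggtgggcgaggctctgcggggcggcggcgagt
Arntl: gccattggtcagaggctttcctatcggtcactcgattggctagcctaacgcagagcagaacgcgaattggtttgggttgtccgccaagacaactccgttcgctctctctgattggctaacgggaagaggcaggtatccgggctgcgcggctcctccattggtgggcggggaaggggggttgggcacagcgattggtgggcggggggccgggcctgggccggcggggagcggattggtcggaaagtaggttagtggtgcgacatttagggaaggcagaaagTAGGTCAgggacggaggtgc
Nr1d1: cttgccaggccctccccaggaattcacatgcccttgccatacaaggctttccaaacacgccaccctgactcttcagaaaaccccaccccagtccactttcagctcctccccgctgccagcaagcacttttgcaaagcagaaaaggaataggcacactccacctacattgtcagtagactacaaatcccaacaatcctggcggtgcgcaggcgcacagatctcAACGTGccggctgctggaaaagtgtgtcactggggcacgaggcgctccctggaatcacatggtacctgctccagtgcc
Nr1d2: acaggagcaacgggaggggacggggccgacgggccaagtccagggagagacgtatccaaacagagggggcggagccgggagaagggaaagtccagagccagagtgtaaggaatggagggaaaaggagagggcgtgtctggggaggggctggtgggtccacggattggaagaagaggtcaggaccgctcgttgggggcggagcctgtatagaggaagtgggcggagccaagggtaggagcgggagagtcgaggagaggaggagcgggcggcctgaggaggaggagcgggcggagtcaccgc

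The Per1 window shown held an E-box 166 bases before the start, and the window of the other annotated Per1 start held no marked motif. The Per3 window held D-boxes 205 and 158 bases before the start and no E-box. In the Arntl window a RORE core began at base 30 after the start, and the other annotated Arntl start nearby had no marked motif in its window. The Nr1d1 window held an E′-box on the opposite strand, 28 bases before the start, while none of the marked motifs was found in the Nr1d2 window. Of all 32851 promoter windows of this length, 7.15% held the E-box, 4.68% the E′-box, 2.32% the D-box, 2.61% the core TAGGTCA and 3.98% the core TGGGTCA. A window was given for 9 of the 10 members, Per2 being the other, with 13 windows in all. The Cry1 window held an E-box and an E′-box, and the Cry2 window an E′-box. No marked motif was found in the Clock or Dbp windows. The cyclic AMP response element TGACGTCA, which 1.79% of all windows held, was in no member's window. Its core TGACG, which the full element contains, is not capitalized, and 20.8% of all windows and the windows of 3 members (Per1, Cry1 and Cry2) held it. These matches describe the letters of short windows and do not show binding.

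Values are given as log2 signal, where 0 is the 75th percentile of the probes on an array. That percentile was an intensity of 1335 to 1863 for control and of 1803 to 1899 for HX630. Between 69.7% and 73.5% of probes were well above background on each array, and no probe was saturated. The arrays were on 2 slides, neither of which held both groups, and each slide had its own scan. The effect of HX630 and that of the slide or scan therefore cannot be told apart. No source used here says whether the 4 samples of a group were separate cultures, so that p-values measure the spread between these samples, which may be technical. A gene was called when its adjusted p was below 0.01 and its fold change above 1.5 (0.58 on the log2 scale). Of 8 corticotroph markers, 7 were well above background on every array of both groups, and Avpr1b on none. Their summed intensity was 855371 to 983226 on the control arrays and 731518 to 790991 on the HX630 arrays. Of 8 markers of other pituitary cells, 3 were above background on all control arrays and 5 on all HX630 arrays, with sums of 491 to 701 and 617 to 730, and Prl and Tshb were above background on none. Of 5 fibroblast markers, these counts were 3 and 4, with sums of 150 to 195 and 211 to 288, and Pdgfra was above background on none. All these sums are of intensities not scaled between arrays. On the scaled values, Dcn was called higher (log2 fold change 1.04), and Col1a1 (0.22), Col1a2 (0.07) and Col3a1 (-0.31) were not called. Among the tested markers of other pituitary cells only Gh was called, and it was lower (-0.79). The part of these marker differences in the results on clock genes was not tested.

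Of the 10 clock genes, Nr1d1, Arntl, Per1 and Per2 were lower with HX630, and none was called higher. Nr1d1 and Arntl fell to 50.5% and 50.9% of control, Per1 to 56.0% and Per2 to 64.8%. The other 6 members, Per3, Cry1, Cry2, Clock, Nr1d2 and Dbp, were not called. Among all genes tested, 11.2% were called lower and 8.38% were called higher. The log2 fold changes of the members ran from -0.99 to 0.32 with a median of -0.27, against a median of -0.03 over all genes, and 5 members had a value above 0 and 5 below. The HX630 arrays all lay below the control arrays for 4 members and all above them for 1, which is near the background, since 61.5% of all genes tested had groups that did not overlap. In bulk RNA of this kind, fewer cells that express a gene and less RNA of it per cell cannot be told apart. With a single time point, a lower mean level and a shifted phase of a rhythm cannot be told apart either.

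**Figure D1:**
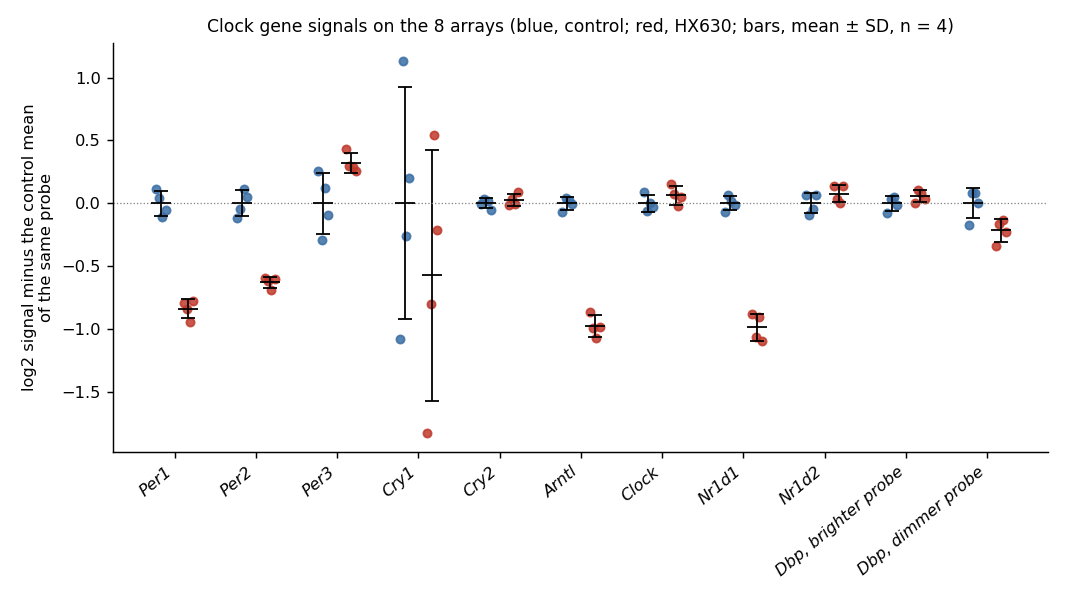
Log2 signal of each clock gene probe on the 8 arrays, minus the mean of the 4 control arrays for the same probe (blue, control; red, HX630; bars, mean ± SD, n = 4). The HX630 points of Per1, Per2, Arntl and Nr1d1 lie below all control points, those of Per3 lie above them, and Cry1 spreads over more than any other probe shown.

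Arntl encodes BMAL1, the activator without which the loop does not run. Its log2 signal was 0.41, 0.52, 0.50 and 0.47 on control replicates 1 to 4 and -0.39, -0.51, -0.60 and -0.51 on HX630 replicates 1 to 4. The groups were far apart compared with their spread, 0.47 ± 0.050 in the control and -0.50 ± 0.087 with HX630 (SD, n = 4). Arntl fell by 0.98 on the log2 scale (SE 0.052, limma adjusted p = 2.42e-06, 95% interval -1.10 to -0.85). Of all genes tested, 8.90% had a change at least this large in either direction.

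Clock encodes the partner of BMAL1. It read -0.26, -0.41, -0.35 and -0.37 on the control arrays and -0.19, -0.27, -0.37 and -0.30 on the HX630 arrays, and the groups overlapped. Its log2 fold change was 0.06 (SE 0.051, limma adjusted p = 0.32), and the interval of -0.056 to 0.18 excludes a fall of the size seen for Arntl. The partners were thus set against each other within each array, a comparison that no scaling factor between arrays can alter. The log2 ratio of Arntl to Clock was 0.82 ± 0.11 in the control and -0.22 ± 0.018 with HX630 (SD, n = 4), a difference of -1.04 (95% interval -1.18 to -0.90, exact permutation test, two-sided p = 0.0286, adjusted p = 0.0457 over 8 pairs). This p is the smallest that the 70 regroupings of 8 arrays allow. The pairs were chosen with earlier results of these data known, and each pair that passed set a called gene against one not called. The p-values of the pairs are therefore no independent support, and the sizes of the differences are what they add.

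Nr1d1 encodes REV-ERBα, the heme-binding repressor that closes that further arm of the loop and acts on Arntl. Its log2 signal was -1.83, -1.70, -1.75 and -1.78 on the control arrays and -2.65, -2.83, -2.67 and -2.86 on the HX630 arrays. No HX630 array came near the control arrays. It was lower by 1.98-fold with HX630, with a log2 fold change of -0.99 (SE 0.061, limma adjusted p = 5.16e-06, 95% interval -1.13 to -0.84). A change at least as large was found for 8.66% of all genes tested.

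Nr1d2 encodes REV-ERBβ, which overlaps with REV-ERBα in function. It read -0.25, -0.40, -0.36 and -0.25 on the control arrays and -0.18, -0.28, -0.31 and -0.18 on the HX630 arrays. These ranges overlapped, and the log2 fold change was 0.08 (SE 0.053, limma adjusted p = 0.243, 95% interval -0.046 to 0.20). Within arrays, the log2 ratio of Nr1d1 to Nr1d2 changed by -1.06 (95% interval -1.29 to -0.83, exact permutation test, two-sided p = 0.0286, adjusted p = 0.0457). On these arrays the changes of the 2 REV-ERB genes thus differed by 2.09-fold.

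Nr1d1 and Arntl, the repressor and the gene it represses, were both lower with HX630, and by nearly the same amount. The log2 ratio of Nr1d1 to Arntl was -2.24 ± 0.015 in the control and -2.25 ± 0.13 with HX630 (SD, n = 4), a difference of -0.01 (95% interval -0.17 to 0.14, exact permutation test, two-sided p = 0.886). The interval allows a difference of 0.17 on the log2 scale at most, and its sign and call moved when single arrays were left out. Without HX630 replicate 3 the difference was -0.070 and passed (adjusted p = 0.0381), without HX630 replicate 2 it was 0.012, and without HX630 replicate 4 it was 0.024. Among the members, Arntl was also the closest to Nr1d1 in its pattern over the 8 arrays. Over 14305 genes well above background on all 8 arrays, the 3 patterns most like that of Nr1d1 were those of Esrra, an orphan nuclear receptor, R3hdml and Tymp (thymidine phosphorylase). Each gene was centred on its mean over the control arrays, so that genes with a like fold change count as alike. Their signals then differed from those of Nr1d1 by a root mean square of 0.049, 0.050 and 0.051, and by 0.078 for Arntl. Their log2 fold changes were -0.99, -0.95 and -0.97.

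**Figure D2:**
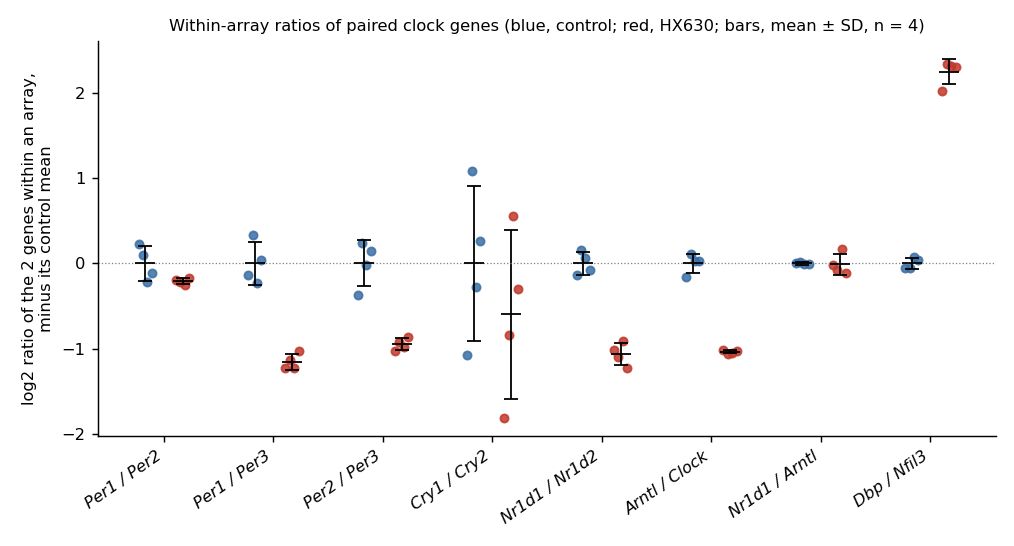
Log2 ratio of 2 genes measured on the same array, minus its mean over the 4 control arrays, for 8 pairs (blue, control; red, HX630; bars, mean ± SD, n = 4). The ratio of Arntl to Clock shifts by -1.04 and that of Nr1d1 to Nr1d2 by -1.06, while the ratio of Nr1d1 to Arntl shifts by -0.01 and its groups overlap.

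The Per genes encode the period proteins that repress BMAL1 and CLOCK. Per1, which cyclic AMP and glucocorticoid signals induce rapidly, read 3.10, 3.03, 2.88 and 2.93 on the control arrays and 2.20, 2.15, 2.05 and 2.21 on the HX630 arrays. Per2, which is central to the length of the period, read -1.46, -1.39, -1.23 and -1.29 on the control arrays and -1.94, -1.96, -2.03 and -1.95 on the HX630 arrays. For both genes, the highest HX630 array stayed below the lowest control array. The log2 fold change was -0.84 for Per1 (SE 0.061, limma adjusted p = 1.37e-05) and -0.63 for Per2 (SE 0.056, limma adjusted p = 4.22e-05). The Per2 fold change of 1.54 stood just past the threshold of 1.5. It no longer passed after quantile normalization (-0.58), scaling to the median (-0.54) or scaling to the spike-in probes (-0.41), although the adjusted p stayed below 0.01 under each of the 3. The unscaled intensities of Per2, 484 to 794 on the control arrays and 448 to 492 on the HX630 arrays, overlapped.

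Per3 is the period gene that the loop can best do without. It read -5.10, -5.65, -5.23 and -5.45 on the control arrays and -4.92, -5.06, -5.07 and -5.10 on the HX630 arrays, with intensities of 27.0 to 59.4 over all 8 arrays. The groups did not overlap, but the highest control array and the lowest HX630 array were within rounding of each other. The log2 fold change was 0.32 (SE 0.12, limma adjusted p = 0.0438), which was not called. With normexp background correction, which adjusts dim signals most, it was -0.16 (adjusted p = 0.316), so that the data do not settle the direction of Per3.

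Set against Per3 within each array, Per1 shifted by -1.16 (95% interval -1.48 to -0.83) and Per2 by -0.95 (95% interval -1.29 to -0.60). In the exact permutation test both gave a two-sided p = 0.0286 and an adjusted p = 0.0457. With normexp these differences were smaller, -0.66 and -0.43. The ratio of Per1 to Per2 changed by -0.21 (95% interval -0.46 to 0.042, exact permutation test, two-sided p = 0.0857, adjusted p = 0.114). An unequal response of Per1 and Per2 was therefore not detected, and the interval allows a Per1 response larger by up to 0.46 on the log2 scale. That test passed at an adjusted p = 0.0381 without control replicate 3, where the exact permutation difference was -0.28.

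The cryptochromes are the partners of the PER proteins and the stronger repressors of the complex. Cry2 read 2.45, 2.50, 2.48 and 2.41 on the control arrays and 2.45, 2.50, 2.45 and 2.55 on the HX630 arrays. The groups lay on top of each other, with a log2 fold change of 0.03 (SE 0.038, limma adjusted p = 0.575, 95% interval -0.062 to 0.12). Cry1 read -7.32, -5.11, -6.50 and -6.04 on the control arrays and -8.07, -7.04, -5.70 and -6.45 on the HX630 arrays. The Cry1 probe was well above background on 3 of 4 arrays in each group, and its spread (SD 0.92 and 1.00) was larger than its log2 fold change of -0.57 (SE 0.60, limma adjusted p = 0.446). The interval of -1.98 to 0.83 fixes neither direction nor size, and a difference between Cry1 and Cry2 was not detectable either (-0.60, 95% interval -2.24 to 1.05, exact permutation test, adjusted p = 0.49).

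Dbp is an output of the loop, an activator of genes with D-boxes whose mRNA cycles strongly in many tissues. Its brighter probe read 1.46, 1.57, 1.59 and 1.52 on the control arrays and 1.54, 1.64, 1.62 and 1.57 on the HX630 arrays. The log2 fold change was 0.06 (SE 0.043, limma adjusted p = 0.287, 95% interval -0.043 to 0.16). The dimmer probe gave -0.21 (SE 0.072, limma adjusted p = 0.0339) with overlapping groups, so that neither probe was called and the 2 differed in sign. The mean of both probes gave -0.078 (adjusted p = 0.271). Dbp was thus not called higher or lower while Arntl, the activator of its transcription, was lower.

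Other clock genes, 53 in all, were grouped by their role, and 52 of them were tested. Of these, 7 were called higher and 8 lower, with a median log2 fold change of 0.05 and the same background of 8.38% and 11.2%. With scaling to the spike-in probes the counts were 12 higher and 4 lower, against 70.5% of called genes higher in place of 42.9% over the whole array. The median over all genes moved by 0.22 under that scaling. Relative to the median of all genes, Arntl was at -0.94, Nr1d1 at -0.95, Per1 at -0.80 and Per2 at -0.59 under both scalings. These values could not differ between the scalings, since a constant for each array cancels in them. Under spike-in scaling, with that median not subtracted, Cry2, Clock, Nr1d2 and Dbp were at 0.25, 0.28, 0.30 and 0.28. Their limma adjusted p was 0.0072, 0.0031, 0.0074 and 0.0052, and they were still below the fold threshold.

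**Figure D3:**
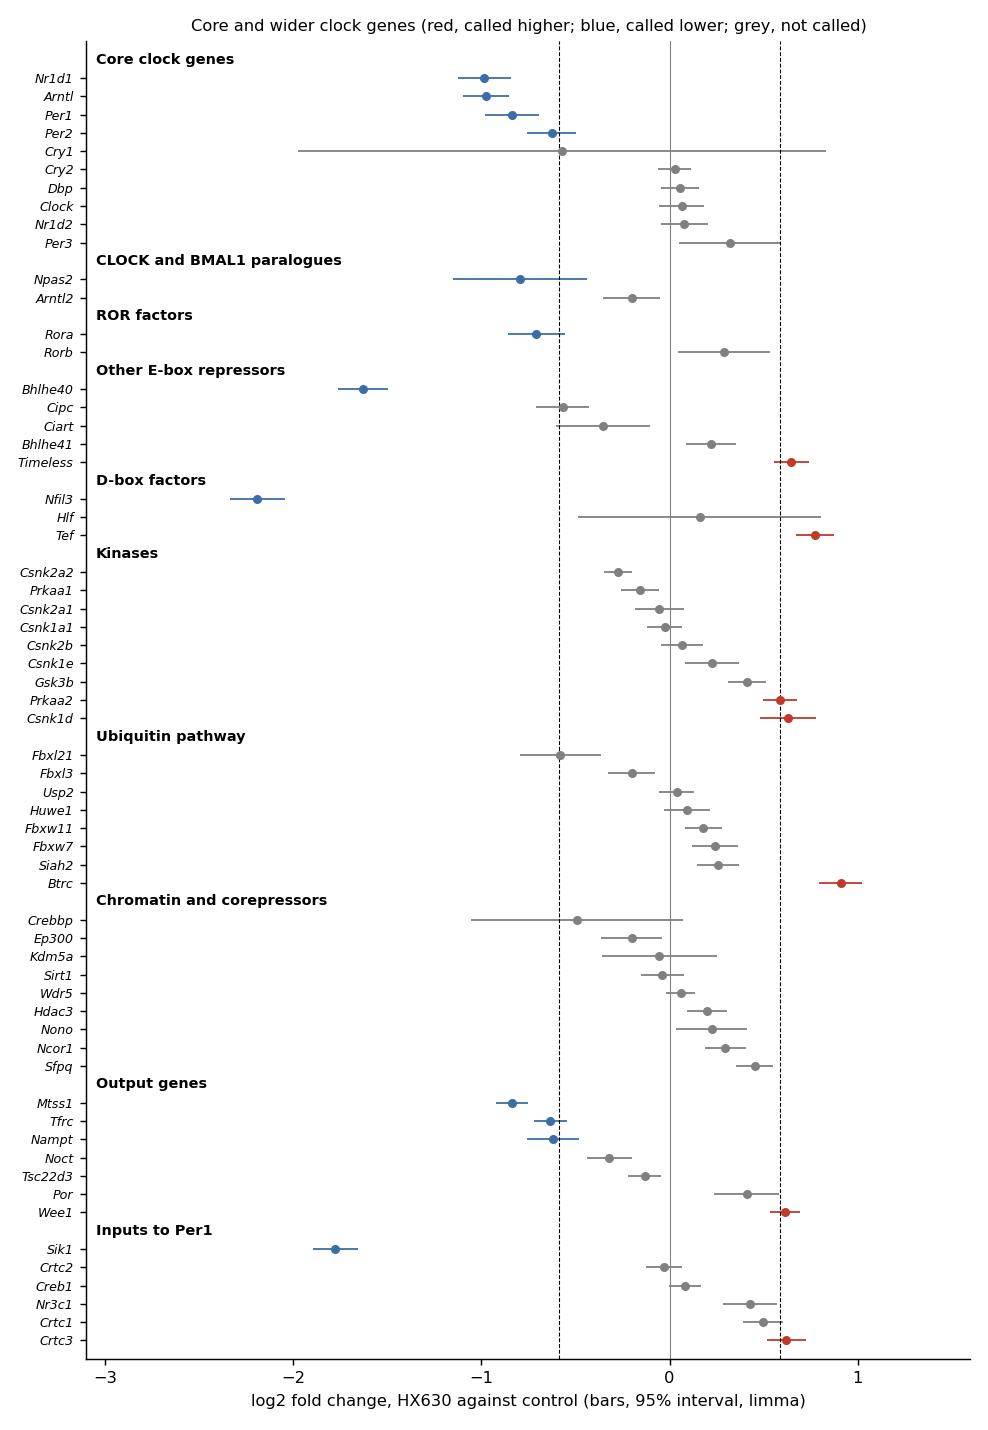
Log2 fold change of HX630 against control for the 10 clock genes and the 52 other clock genes tested, of which 1 is not shown, grouped by role (points, limma estimates; bars, 95% intervals; dashed lines, 1.5-fold; red, called higher; blue, called lower; grey, not called). Nfil3, Sik1 and Bhlhe40 stand farthest to the left, and Btrc and Tef farthest to the right. With scaling to the spike-in probes 12 of the other genes were called higher and 4 lower, in place of 7 and 8.

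Among the 52, the largest fall was that of Nfil3, the repressor that competes with DBP for the D-box. Nfil3 read 2.66, 2.78, 2.66 and 2.63 on the control arrays and 0.66, 0.44, 0.46 and 0.41 on the HX630 arrays, which placed it at 21.9% of control. Its log2 fold change was -2.19 (SE 0.062, limma adjusted p = 1.94e-07). The ratio of Dbp to Nfil3 rose by 2.25 on the log2 scale within arrays (95% interval 2.05 to 2.45, exact permutation test, two-sided p = 0.0286, adjusted p = 0.0457), or 4.75-fold. Tef, a relative of DBP that activates through the same element, read 2.13 to 2.21 on the control arrays and 2.85 to 3.00 on the HX630 arrays. Tef rose by 0.77 (SE 0.043, limma adjusted p = 2.91e-06). Hlf, the remaining D-box activator, was dim and had a log2 fold change of 0.16 (SE 0.28, adjusted p = 0.644). Of the 3 D-box factors beside Dbp, then, 1 rose, 1 fell and 1 was not called. The Nfil3 promoter window held a RORE core on the opposite strand, 12 bases before the start, and both Tef windows held an E-box.

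Among the other repressors that act at E-boxes, 1 of 5 rose and 1 fell. Bhlhe40 (DEC1), which competes with BMAL1 and CLOCK for the E-box, read -0.13, -0.04, -0.01 and -0.02 on the control arrays and -1.55, -1.78, -1.72 and -1.67 on the HX630 arrays. It fell to 32.4% of control (log2 fold change -1.63, SE 0.057, limma adjusted p = 4.04e-07), whereas its relative Bhlhe41 was at 0.22 and was not called. Cipc, an inhibitor that binds CLOCK, was at -0.57, just short of the fold threshold, and was called lower without control replicate 4 (-0.60), HX630 replicate 1 (-0.59) or HX630 replicate 4 (-0.59). Timeless, which also serves the replication fork, read 1.88 to 2.00 on the control arrays and 2.56 to 2.62 on the HX630 arrays. It rose by 0.65 (SE 0.039, limma adjusted p = 4.86e-06), and its dimmer probe was also called higher, at 0.80.

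The ROR receptors activate Arntl where the REV-ERBs repress it. Rora read 0.03 to 0.25 in the control and -0.66 to -0.46 with HX630, and it fell, with a log2 fold change of -0.71 (SE 0.065, limma adjusted p = 4.63e-05). Rorb was at 0.29 and was not called. The paralogues of CLOCK and BMAL1 gave 1 call of 2. Npas2 was lower, with a log2 fold change of -0.80 (SE 0.15, limma adjusted p = 0.00273), but was dim and well above background on only 2 of the 4 HX630 arrays. Arntl2 was at -0.20 and was not called. The call of Npas2 was lost with normexp (-0.53) and with scaling to the spike-in probes (-0.58), and that of Rora with the latter (-0.49).

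The kinases that act on clock proteins gave 2 rises and no fall among 9. Csnk1d (casein kinase 1δ) was called higher by its brighter probe, at 0.63 (SE 0.064, limma adjusted p = 8.11e-05), and lower by its dimmer probe, at -1.15 (limma adjusted p = 5.34e-07). The probes of Csnk1d, which were matched to different RefSeq transcripts, thus opposed each other. When they were averaged the gene was at -0.26 and was not called. Prkaa2, a catalytic subunit of AMP-activated protein kinase, rose by 0.59 (SE 0.038, limma adjusted p = 7.01e-06), just past the fold threshold. Its call was lost with normexp (0.57), and also without control replicate 2 (0.57), control replicate 3 (0.58), HX630 replicate 1 (0.58) or HX630 replicate 2 (0.58). Gsk3b was at 0.41 and was not called, although 1 of its 2 dimmer probes was, at 0.75.

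Of 8 genes of the ubiquitin pathway that removes clock proteins, 1 was called. Btrc (β-TrCP), which recognizes phosphorylated PER, read -1.99 to -1.80 on the control arrays and -0.99 to -0.91 on the HX630 arrays. It rose by 0.91 (SE 0.049, limma adjusted p = 2.57e-06). Its dimmer probe stood at 0.56, below the fold threshold. Fbxl21, which acts on cryptochromes, had a log2 fold change of -0.58 (SE 0.093, adjusted p = 0.0010), close to the fold threshold but not past it. It was called lower when control replicate 2 was left out (-0.61), and likewise for control replicate 4 (-0.64) and HX630 replicate 2 (-0.61). None of 9 chromatin and corepressor genes was called by its brightest probe. The largest value among them was that of the acetyltransferase gene Crebbp, -0.49 (SE 0.24, adjusted p = 0.119). A dimmer probe of the corepressor gene Ncor1 was called higher, at 0.76, against 0.30 for its brightest probe.

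Of 7 genes known as outputs of the clock, 1 rose and 3 fell. Wee1, a kinase that holds back mitosis, rose by 0.61 (SE 0.035, limma adjusted p = 3.45e-06). Mtss1 fell by 0.84 (SE 0.036, limma adjusted p = 8.74e-07) and its other probe by 0.77. Tfrc, the transferrin receptor, fell by 0.63 (SE 0.037, limma adjusted p = 4.12e-06), and Nampt, the enzyme that limits NAD synthesis, fell by 0.62 (SE 0.059, limma adjusted p = 5.79e-05). The calls of Tfrc and Nampt were lost with scaling to the median or to the spike-in probes, and that of Tfrc also with quantile normalization. The other probes of Tfrc were lower as well, at -0.88 and -1.08.

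Genes of the signals that reach Per1 gave 1 rise and 1 fall among 6. Sik1, a kinase induced by cyclic AMP that restrains the CREB coactivators CRTC, read 0.11, 0.16, 0.08 and 0.22 on the control arrays and -1.52, -1.68, -1.64 and -1.70 on the HX630 arrays. It fell to 29.2% of control (log2 fold change -1.78, SE 0.052, limma adjusted p = 2.05e-07). Crtc3, one of those coactivators, was called higher by its brighter probe, at 0.62 (SE 0.044, limma adjusted p = 1.10e-05), while its dimmer probe was at -0.01. The call of Crtc3 was lost with normexp (0.58) and when its probes were averaged (0.31). The glucocorticoid receptor gene Nr3c1 was at 0.43 and Crtc1 at 0.50, and neither passed the fold threshold, although both did with scaling to the spike-in probes (0.65 and 0.72), and Crtc1 also with scaling to the median (0.59) and with normexp (0.61). Creb1 and Crtc2 were at 0.08 and -0.03.

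Among the marker genes of the line itself, Pomc, the precursor of ACTH, had a log2 fold change of -0.45 (SE 0.086, limma adjusted p = 0.0024), below the fold threshold. The prohormone convertase gene Pcsk1 fell by 2.06 (SE 0.052). Chga (-0.39), Tbx19 (-0.37) and Pitx1 (-0.32) were lower too, without passing the fold threshold. In contrast, the CRH receptor gene Crhr1 rose by 1.11 and the transcription factor gene Neurod1 by 0.72, so that the markers did not all move together.

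**Figure D4:**
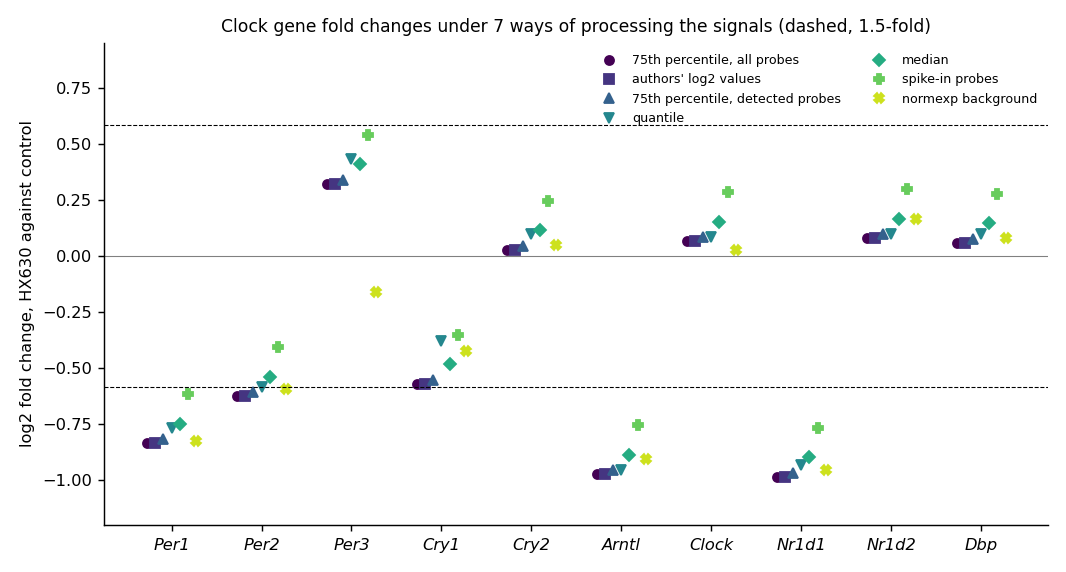
Log2 fold change of HX630 against control for each clock gene with 7 ways of processing the signals (dashed lines, 1.5-fold). Per1, Arntl and Nr1d1 stay below the lower line in all 7, Per2 lies above it in 3, and Per3 lies below 0 in 1, with normexp background correction.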

How the data were processed

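Total RNA of 4 control and 4 HX630 samples was read in the Cy3 channel of 1-color Agilent arrays. The authors deposited Feature Extraction 10.7.3.1 output, in which the processed intensity of a spot is background-subtracted and detrended but not scaled between arrays. Log2 values for these arrays were deposited too, in a table that differed from those calculated here by a median of 0.0011. Each array held 44397 spots, of which 1377 control spots and outlier spots were left out. Spots of a probe were averaged (39429 probes), and log2 signals were reduced by the 75th percentile of the array. Probes well above background on at least 4 arrays (28553) were tested with lmFit and eBayes (limma 3.58.1, R 4.3.3) over all 8 arrays, with Benjamini-Hochberg adjustment over all probes tested. The brightest tested probe stood for a gene. A plain t-test is the test the study names, and it was run as an alternative. Of all probes, 66.1% were named by RefSeq accession (GRCm38.p6 table), and coordinates are those of that table. Pairs of genes were compared within arrays by an exact permutation test over 70 regroupings (smallest p 0.0286), adjusted over 8 pairs, with intervals from the pooled SD.

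The members, the lists of other clock genes and the pairs were chosen with earlier results of these data known. Named were every member, every called gene of the other lists, the largest change in a list with none, and the 3 genes most like the member that fell most. Other genes named for a value near a threshold, for a family member or for a probe that disagreed were chosen after their values were seen. The code was tested on simulated data. The number of arrays limits the precision. Alternatives were other scalings, normexp on the median spot intensity (offset 50), other filters, variance models, tests and thresholds, array weights, the mean of probes, leaving out each array, and a block for the replicate number. Of the listed genes, Kmt2a had no matched probe, and 1 that was tested and counted is not reported here.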

Additional observations from a re-analysis of the deposited data

Results flagged for a closer look

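None of the 10 clock genes had an array far from the others of its group. Dixon's test takes the gap to the nearest array as a share of the range of the group. It was run on every probe of the 10 clock genes and on the brightest probe of each other clock gene tested. Of these 126 groups of 4 arrays, 5 had such an array (6.3 would be flagged by chance). Dimmer probes of the other clock genes were not checked. Control replicate 1 stood apart for Ciart (share 0.85, signal -2.15 against a mean of -1.77 for the others), Csnk1d (brighter probe, 0.864, 4.29 against 4.06), Gsk3b (0.856, 3.45 against 3.57) and Fbxw7 (0.874, 0.26 against 0.44). HX630 replicate 3 stood apart for Siah2 (0.974, 0.88 against 0.98). Without that array the log2 fold changes were -0.45, 0.69, 0.38, 0.20 and 0.28 in the same order. Control replicate 1 also had the lowest 75th percentile of intensity, 1335, and its part in these values was not tested.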

How the results depend on the processing

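The calls of Per1, Arntl and Nr1d1 held under every alternative, and the number of members called lower was 4 without any single array and 3 with quantile normalization, scaling to the median or scaling to the spike-in probes, where Per2 stood at -0.584786, -0.54 and -0.41. The methods' t-test called 4 members lower and none higher, before and after Benjamini-Hochberg adjustment. At an adjusted p below 0.05 with no fold threshold, Per3 (0.32) was called, so that 1 member was higher. The other clock genes called were then 21 higher and 19 lower, while scaling to the spike-in probes gave 12 and 4. Without a fold threshold most calls are shared with the whole array. At an adjusted p below 0.01, 7845 of all 15320 genes tested passed, against 30 of the 52 other clock genes and 4 of the 10 members. Scaling moved the share of called genes that were higher from 42.9% (1284 higher, 1710 lower) to 54.7% with the median (1708 and 1415) and 70.5% with the spike-in probes (2479 and 1038), and normexp gave 37.7% (877 and 1451). The sign changed for Per3 with normexp (-0.16), for Dbp with the mean of its probes (-0.078), and for the ratio of Nr1d1 to Arntl with quantile normalization (0.021) and within its range with single arrays left out (-0.070 to 0.024). The difference between Per1 and Per2 passed with normexp (-0.23), and ranged from -0.28 to -0.13 without single arrays. The cause of these changes was not tested. With the replicate number as a block, limma called the same number of members (0 higher, 4 lower) and of other clock genes (7 and 8). For the pairs, the block left sign changes over 4 pairs, whose smallest p is 0.125 (adjusted 0.167), so that no pair could pass: Per1 to Per3 (-1.16), Per2 to Per3 (-0.95), Nr1d1 to Nr1d2 (-1.06), Arntl to Clock (-1.04) and Dbp to Nfil3 (2.25) kept their size. Arrays of the same number shared deviations with correlations of 0.52, -0.009, 0.24 and 0.38, and 5 of 8 arrays correlated best with their own number, a hint of shared structure that comes from the data and not from the design. Since 1 of the 4 correlations was near 0 and no label ties the numbers to a culture or day, the numbers were not taken to pair the samples. Signals near background limit Cry1, Per3 and Npas2.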
